A study of Mus musculus with 10 samples.

Results

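Mtf2 binding was compared between 2 successive stages of erythropoiesis in the e14.5 FL of WT C57Bl/6 embryos. Members were all autosomal peaks of the 2 lists that the authors called from ChIP-seq with an antibody against Mtf2 (Pcl2), 1 for CD71+Ter119-/lo pro-erythroblasts and 1 for CD71+Ter119high (CD71+Ter119+) erythroblasts. They held 25805 and 4771 peaks, 30576 in all, out of 50907 peaks over the 6 lists and all chromosomes of the series. Each list came from 500000 sorted cells and was called against the rabbit IgG library of its own fraction, so 4 of the 10 libraries of the series entered the comparison. The other libraries measured H3K27me3 and IgG in WT and Mtf2-null cells. Both Mtf2 groups carried the same genotype and differed in the sorted surface markers. The methods state replicates of 2, but 1 library per fraction was used here, so no spread between replicates and no test between the fractions could be given.

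PRC2 is the complex that writes the repressive mark H3K27me3, and Mtf2 is an accessory subunit that helps bring it to chromatin. In embryonic stem cells Mtf2 is known for binding unmethylated DNA that is rich in CpG, mostly at promoters. Erythroid cells lose CD117 and gain Ter119 as they mature, while they shut down most of the genome and make haemoglobin. A large part of the mouse genome is interspersed repeated sequence. LTR retrotransposons are bounded by identical terminal direct repeats, and young LINE elements start with an array of short tandem monomers that is rich in CpG. Both are known targets of DNA methylation and of repressive histone marks.

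Pro-erythroblasts held 5.41 times as many autosomal peaks as erythroblasts, and these covered 50.04 Mb against 5.19 Mb. The libraries were unequal. The pro-erythroblast library held 29009650 unique tags and the erythroblast library 15669899, a ratio of 1.85. Unique tags, as the headers count them, made up 34.6% and 39.7% of all tags, against 80.7% and 83.4% in the WT H3K27me3 libraries of these fractions. The IgG libraries held 16898992 and 12345800 unique tags. Autosomal peaks took 7.82% of the unique tags in pro-erythroblasts and 0.934% in erythroblasts. Depth and stage cannot be told apart in the number of peaks.

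The lists were compared by the peaks that met a peak of the other list, and since the lists differ in length, the same overlap is a larger share of the shorter one. Of the erythroblast peaks, 2864 (60.03%, 95% Wilson interval 58.6 to 61.4) shared at least 1 base with a pro-erythroblast peak and 1907 did not. Of the pro-erythroblast peaks, 2654 (10.3%, interval 9.92 to 10.7) were shared and 23151 were not. With as many of the highest-scoring pro-erythroblast peaks as there are erythroblast peaks, 39.1% of the erythroblast and 32.6% of those pro-erythroblast peaks were shared. These and all intervals below cover counting error only. The 2 lists met in 3066 pairs of peaks, and in 2144 of them the erythroblast peak lay whole inside the pro-erythroblast peak. Only 57 pairs shared under 100 bases. Of the 1907 erythroblast-only peaks, 115 (6.03%) lay within 1000 bases of a pro-erythroblast peak, and their median distance to the nearest one was 29893 bases. For pro-erythroblast-only peaks the median distance to an erythroblast peak was 157249 bases. Both distances depend on how many peaks the other list holds, so they cannot be compared between the lists.

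Length separated the sets within the pro-erythroblast library, where depth was the same on both sides. Under a rule of 1 shared base, however, a longer peak meets another list more easily. The part of this rule in the contrast was not tested. Shared pro-erythroblast peaks had a median length of 2985 bases (quartiles 1695 and 4914) and pro-erythroblast-only peaks one of 1340 bases (quartiles 904 and 2179). Peaks of at least 7 kb made up 8.55% of the shared and 0.626% of the pro-erythroblast-only peaks. Erythroblast peaks were shorter, with medians of 1092 bases for shared and 791 bases for erythroblast-only peaks, and 1 of them reached 7 kb.

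**Figure D1:**
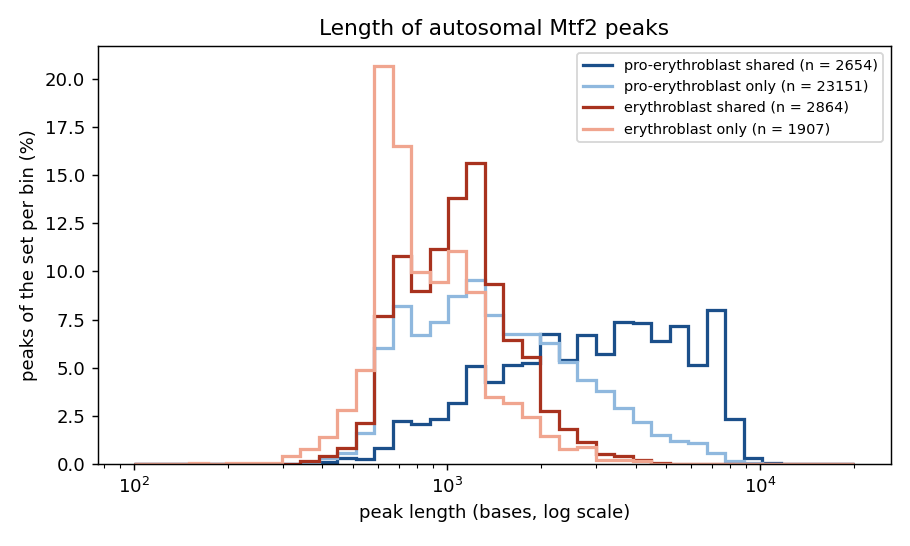
Share of the peaks of each set (y axis, %) by peak length (x axis, bases, log scale) for the 4 sets of autosomal Mtf2 peaks, each drawn as 1 outline. The shared pro-erythroblast peaks are spread toward long peaks, with 8.55% at 7 kb or more, while erythroblast-only peaks stand highest just under their median of 791 bases.

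Sharing rose with the score, which is 10 times the negative log10 of the p that the peak caller gave. Among pro-erythroblast peaks, 2.33% of the lowest-scoring 10% were shared and 43.5% of the highest-scoring 10%. Among erythroblast peaks the shares were 51.3% and 86.4%. Ordered by fold enrichment instead, sharing went the other way in the erythroblast list, from 74.3% in the lowest 10% to 44.9% in the highest, while in the pro-erythroblast list it went from 6.59% to 14.3%. Of the 57 erythroblast peaks with a score of at least 150, 55 lay on a pro-erythroblast peak. The score is no plain rank of reliability in the erythroblast list. Its FDR, estimated by swapping the ChIP and IgG libraries, ran from 6.94% to 100%, and it stood between 15.6% and 100% for those 57 peaks. No erythroblast peak had an FDR of 5% or less, whereas the highest FDR of a pro-erythroblast peak was 0.31%.

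**Figure D2:**
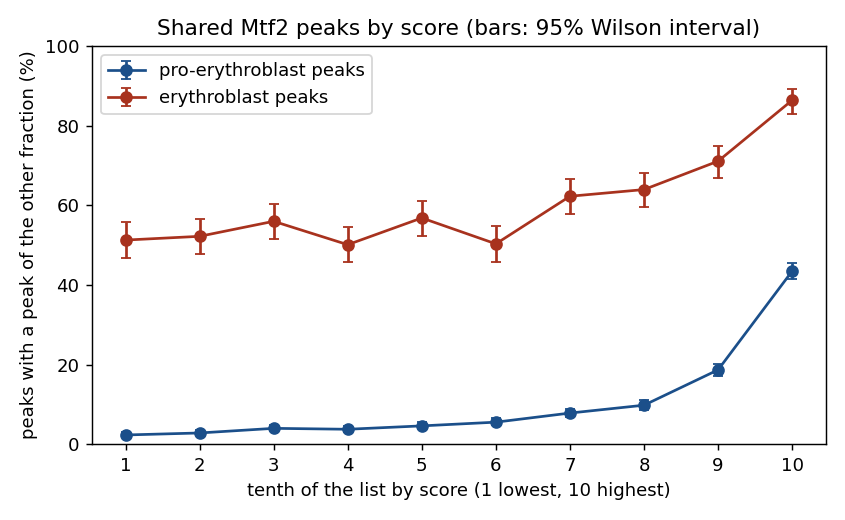
Share of peaks that meet a peak of the other fraction (y axis, %) in each 10% of a list ordered by score (x axis, 1 lowest, 10 highest), with 95% Wilson intervals. The pro-erythroblast line climbs from 2.33% to 43.5%, and the erythroblast line lies between 50.1% and 86.4%.

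Where both fractions had a peak, the tag density was close to equal and the covered length was not. Density was taken as tags per kb of the peak per 1000000 unique tags of the library. Its median over the 3066 pairs was 1.64 in pro-erythroblasts and 1.69 in erythroblasts, and the median of the ratio of erythroblast over pro-erythroblast density was 1.06 (5th to 95th percentile, 0.838 to 1.44). Without division by length, the erythroblast peak held a median of 0.376 times the depth-scaled tags of the pro-erythroblast peak, and it was a median of 0.352 times as long. The summits lay within 200 bases of each other in 931 pairs (30.4%) and over 1000 bases apart in 1217 (39.7%). The lowest density of a called peak was 0.870 in pro-erythroblasts and 1.13 in erythroblasts, so the calling itself bounds this ratio.

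**Figure D3:**
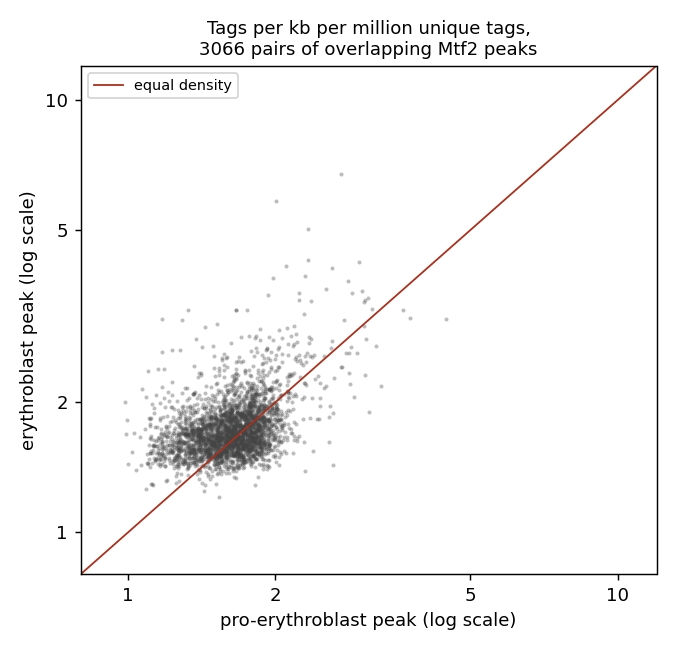
Tags per kb per 1000000 unique tags in the erythroblast peak (y axis) against the pro-erythroblast peak (x axis), both on log scales, for the 3066 pairs of overlapping Mtf2 peaks, 1 point each. The cloud lies around the line of equal density, with medians of 1.64 and 1.69.

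To set the lists at a like depth, the tags of the pro-erythroblast-only peaks were multiplied by the ratio of unique tags, 0.540. The median pro-erythroblast-only peak then held 30.3 tags, against 26 in the median erythroblast peak. In all, 13297 of 23151 (57.4%) still held at least 26 tags. Per kb, where the length of the peak no longer counts, 18.2% reached the median density of erythroblast peaks.

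The sequence under the peaks was mostly repeated. In 1 kb centred on each summit, a median of 99.0% of the 25-base words in shared erythroblast peaks occurred again on the autosomes, 97.4% in shared pro-erythroblast, 91.7% in pro-erythroblast-only and 76.1% in erythroblast-only peaks. In every 100th 1-kb tile of the autosomes the median was 6.05% (n = 23948 tiles). The handling of tags that match several places is not given in the sources used here. The headers name the alignments as masked without saying what was masked. A tag from such sequence cannot be tied to 1 copy, so single peaks below are uncertain as to the copy and are not independent of each other.

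To describe these sequences, the highest-scoring pro-erythroblast peak was aligned to all peaks, matched peaks were set aside, and the step was repeated on the highest-scoring peak left. Over 14 rounds, 8 seeds matched at least 100 peaks, and they are called units A to H here. They were chosen after the data were seen and from the pro-erythroblast scores. The counts of peaks on them in both lists, and how many were shared, are thus a description. No repeat annotation was used, and the units were not assigned to a named family.

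The 3 units with terminal direct repeats were A, B and C. Unit A (chr5:81806702-81813836, mm9) was 7135 bases long and bounded by copies of a 338-base stretch that were 100% identical. Unit B (chr16:46975703-46982166) was 6464 bases long with terminal repeats of 493 bases, also 100% identical. Unit C (chr5:111516591-111523684) was 7094 bases long with terminal repeats of 438 bases. This is the layout of LTR retrotransposons. Unit D (chr2:80652705-80657615) was an array of 208-base monomers with 57.4 CpG per kb. Unit E (chr9:99974229-99981106) was 6878 bases long, opened with 212-base monomers and held a reading frame of 806 codons, the layout of a LINE element. Units F, G and H showed no such internal repeat. The starts of the terminal repeats of A and B and 1 monomer each of D and E are shown on the forward strand of mm9, since most shared or stage-only peaks lay on these units, with CpG in capitals.

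Unit A, chr5:81806725-81806874: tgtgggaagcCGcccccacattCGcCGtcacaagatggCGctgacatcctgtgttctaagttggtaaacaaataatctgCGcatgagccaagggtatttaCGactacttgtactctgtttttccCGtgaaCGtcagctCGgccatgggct
Unit B, chr16:46975714-46975863: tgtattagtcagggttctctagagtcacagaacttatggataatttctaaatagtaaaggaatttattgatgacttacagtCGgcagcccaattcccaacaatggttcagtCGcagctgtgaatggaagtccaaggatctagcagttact
Unit D, chr2:80652705-80652912: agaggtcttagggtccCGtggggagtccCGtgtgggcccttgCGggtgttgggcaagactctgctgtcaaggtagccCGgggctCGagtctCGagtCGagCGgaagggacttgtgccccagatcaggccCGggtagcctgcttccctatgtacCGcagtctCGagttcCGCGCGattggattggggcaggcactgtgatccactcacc
Unit E, chr9:99974247-99974458: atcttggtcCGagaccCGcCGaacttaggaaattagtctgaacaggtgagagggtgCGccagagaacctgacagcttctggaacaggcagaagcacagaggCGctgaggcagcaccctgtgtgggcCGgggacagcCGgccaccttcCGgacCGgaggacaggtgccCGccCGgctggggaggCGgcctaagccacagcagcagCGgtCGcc

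The A stretch held 9 CpG and the B stretch 2, and the monomers of D and E held 14 each.

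The 4 sets lay on the same units in different proportions. Unit A took 1517 of the 2864 shared erythroblast peaks (53.0%, interval 51.1 to 54.8) and 26 of the 1907 erythroblast-only peaks (1.36%). It took 48.8% of shared and 9.86% of pro-erythroblast-only peaks in the other list, and 0.582% of all 1-kb autosomal tiles. Unit B took 14.7% of shared erythroblast peaks, 1.94% of erythroblast-only peaks and 0.295% of tiles. Unit E showed the opposite order. It took 1157 erythroblast-only peaks (60.7%, interval 58.5 to 62.8) and 12.2% of the shared erythroblast peaks, with 41.8% of pro-erythroblast-only peaks, 13.4% of shared pro-erythroblast peaks and 10.2% of tiles. All 8 units together held 94.0% of shared and 76.4% of erythroblast-only peaks, 93.0% of shared and 76.8% of pro-erythroblast-only peaks, and 12.3% of tiles.

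**Figure D4:**
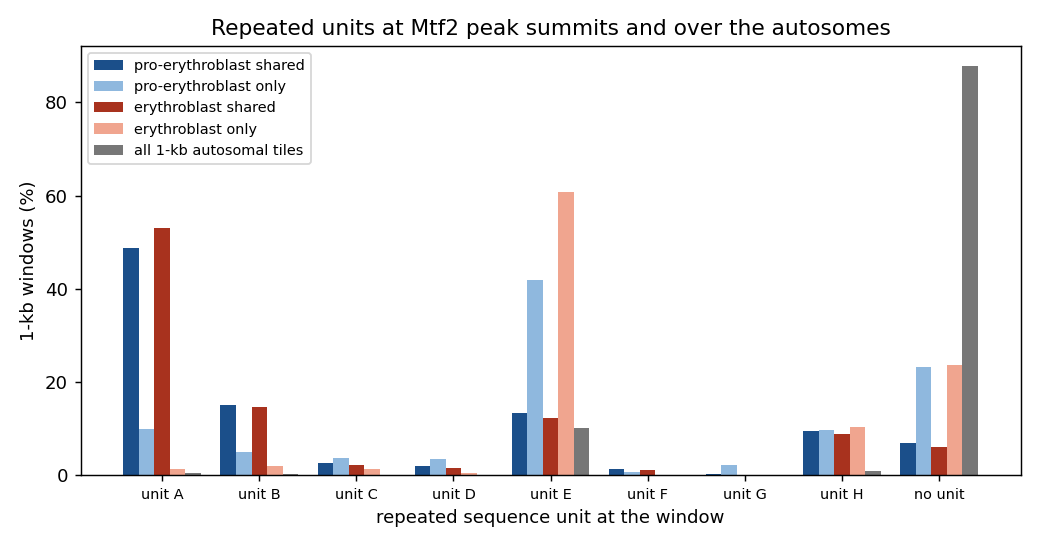
Share of 1-kb windows (y axis, %) that lie on each repeated unit (x axis, units A to H and no unit) for the 4 sets of peaks, centred on the summit, and for all 1-kb autosomal tiles in grey. Units A and B stand highest in the shared sets, unit E in the stage-only sets, and 87.7% of tiles lie on no unit.

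Units D and G held 52 and 8 erythroblast peaks, and 889 and 512 pro-erythroblast peaks. Unit D, the CpG-rich monomer array, took 836 pro-erythroblast-only peaks (3.61%) against 8 erythroblast-only peaks (0.42%), and unit G took 506 (2.19%) against 3 (0.157%). Of the shared erythroblast peaks, D took 44 (1.54%) and G 5 (0.175%), and of the shared pro-erythroblast peaks 53 (2.0%) and 6 (0.226%). The 2 units held 0.104% and 0.061% of tiles. All 34 erythroblast peaks on unit F were shared. On unit H the shares were alike across the sets, between 8.97% and 10.4%. Of all erythroblast peaks on a unit, 98.3% of the 1543 on A were shared, 91.9% of the 457 on B, 56.5% of the 455 on H and 23.2% of the 1507 on E. Among the 623 erythroblast peaks on no unit, 27.6% were shared. Since the units were seeded from pro-erythroblast peaks, these shares are not independent of that choice. On A and B, 99.1% and 98.5% of the full-length copies, defined below, carried a pro-erythroblast peak that an erythroblast peak there could meet.

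The share of pro-erythroblast peaks that were shared was also compared between units at like score. With scores from 100 to 200, 24.6% of 763 peaks on A and 22.75% of 378 on B were shared, against 4.18% of 2080 on E and 6.46% of 945 on no unit. With scores from 200 to 400, 39.8% of 962 peaks on A and 34.3% of 388 on B were shared, against 6.09% of 460 on E and 10.1% of 318 on no unit. The other units lay between E and B there, with 33.3% of 54 on F, 26.5% of 166 on H, 16.9% of 83 on C, 10.5% of 153 on D and 6.38% of 47 on G. With scores of at least 400 the shares were 56.3% of 1136 on A, 44.2% of 265 on B, 3.7% of 54 on E and 15.0% of 40 on no unit. With scores under 100, which hold most peaks, A and B were alike with 11.9% each, and E with 3.2% (interval 2.82 to 3.62) stood above no unit with 2.05% (interval 1.66 to 2.52). The order of E and no unit thus turned with the score, but their intervals overlapped in each band from 100 up. They were 3.4 to 5.13 and 5.06 to 8.2 with scores from 100 to 200. With scores from 200 to 400 they were 4.25 to 8.66 and 7.22 to 13.9. With scores of at least 400 they were 1.02 to 12.5 and 7.06 to 29.1. A and B stood above E and no unit in each of these bands. Peak length moved with the unit as well. Of the A peaks of at least 4 kb, 60.7% were shared, and of those under 1 kb, 7.8%.

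Nearly every full-length copy of A or B carried a peak in pro-erythroblasts, and the units differed in how many did so in erythroblasts. A copy was called full-length when it held at least 90% of the unit, and it carried a peak when they shared at least 200 bases. There were 797 such copies of A, and 790 (99.1%) carried a pro-erythroblast peak and 527 (66.1%, interval 62.8 to 69.3) an erythroblast peak. Of the 588 copies of B, 579 (98.5%) and 275 (46.8%, interval 42.8 to 50.8) did. For C, 67 and 12 of 73 copies carried them, and for G 144 and 5 of 147. Of the 3099 full-length copies of E, 2121 (68.4%) carried a pro-erythroblast peak and 210 (6.78%, interval 5.94 to 7.72) an erythroblast peak. The 161 copies of E with both made up 76.7% of those with an erythroblast peak and 7.59% of those with a pro-erythroblast peak. The median identity of full-length copies to their unit was 94.9% for A, 98.7% for B and 97.2% for E. Tags from sequence this alike cannot be tied to a given copy. The counts on copies, here and below, thus describe called peaks and do not show which copies were bound. Copies are not independent of each other, and the intervals on them cover counting error only. The part of tag placement in these counts was not tested.

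Coverage was also followed along the copy. In pro-erythroblasts, peaks covered between 88.4% and 94.7% of the A copies at each of 40 positions along the copy. In erythroblasts the coverage ran from 6.26% at the start to 37.5% at 66.3% of the way along. On E, pro-erythroblast peaks covered 54.6% of the copies at the monomer end and 5.76% at the far end, and erythroblast peaks between 0.384% and 1.75%. Over all copies of E, fragments included, 22.6% of pro-erythroblast-only summits lay in the first 20% of the unit and 33.3% in the last 20%. For erythroblast-only summits the shares were 1.33% and 55.9% (n = 1126), and the alignments under them had a median of 1881 bases against 5425. The shared erythroblast summits on E were like the pro-erythroblast ones, with 17.8% in the first 20%, 28.2% in the last 20% and a median alignment of 5498 bases (n = 337).

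**Figure D5:**
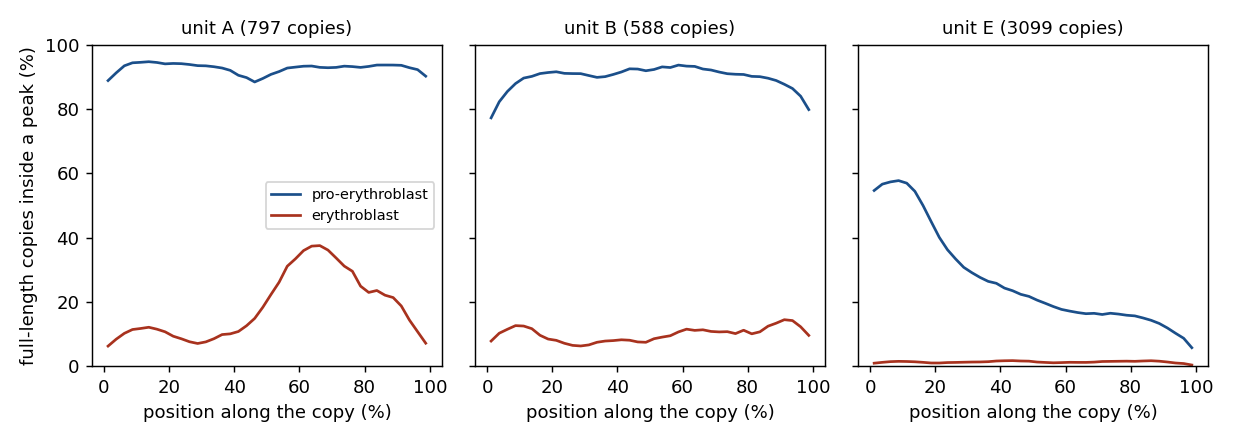
Share of full-length copies inside a peak (y axis, %) along the copy (x axis, % of its length) for units A, B and E, with pro-erythroblast peaks in blue and erythroblast peaks in red. Pro-erythroblast peaks span A and B from end to end and lean to the monomer end of E, while erythroblast peaks on A stand highest past the middle of the copy.

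CpG content set the erythroblast-only windows apart from the other 3 sets. The median 1-kb window held 16 CpG in shared and 11 in pro-erythroblast-only peaks, and 14 in shared and 7 in erythroblast-only peaks, against 7 in all autosomal tiles. At least 20 CpG were present in 40.2% of shared and 31.2% of pro-erythroblast-only windows, in 30.6% of shared and 3.36% of erythroblast-only windows, and in 5.39% of tiles. The median GC content was between 44.0% and 45% in both shared sets and in pro-erythroblast-only windows, 41.6% in erythroblast-only windows and 41.7% in the tiles.

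H3K27me3 was read from the 4 lists of the series for that mark, which differed in length and depth. WT pro-erythroblasts had 4695 autosomal peaks from 18945784 unique tags, WT erythroblasts 4456 from 30054186, Mtf2-null pro-erythroblasts 1331 from 37026535 and Mtf2-null erythroblasts 5129 from 67169672, and the part of these differences in the counts below was not tested. The WT pro-erythroblast H3K27me3 list met 773 of the 2654 shared pro-erythroblast peaks (29.1%) and 7.61% of pro-erythroblast-only peaks. These shares depended on the unit. On A, 45.2% of shared and 28.6% of pro-erythroblast-only peaks were met, and on E 6.48% and 3.15%. On H the shares were alike, 11.02% and 10.85%, and on F and G no shared peak was met. Shared peaks were also longer, and the part of length in this overlap was not tested. The same list met 20.3% of the shared erythroblast peaks and 0.839% of erythroblast-only peaks. These came from a separate Mtf2 and IgG library, but the shared ones were picked by meeting a pro-erythroblast Mtf2 peak. Their share is thus not independent of the pro-erythroblast libraries. The WT erythroblast H3K27me3 list met between 0.311% and 2.05% of the 4 sets. On the 797 full-length copies of A, 479 (60.1%) carried an H3K27me3 peak in WT pro-erythroblasts, 5 in WT erythroblasts, 0 in Mtf2-null pro-erythroblasts (interval up to 0.480%) and 5 in Mtf2-null erythroblasts. On B the counts were 162, 1, 0 and 3 of 588. On E, 324 of 3099 copies (10.5%) carried one in Mtf2-null erythroblasts and at most 82 in any other list. Mtf2 and H3K27me3 of the WT pro-erythroblasts share an IgG library, and the part of that library in this overlap was not tested.

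Peaks were sparse at promoters. The summit lay within 1 kb of a TSS of a protein-coding gene in 0.226% of shared and 1.02% of pro-erythroblast-only peaks, and in 0.279% of shared and 1.1% of erythroblast-only peaks, while that window held 3.18% of autosomal bases. Intergenic summits made up 72.4% of shared erythroblast, 70.1% of erythroblast-only and 72.8% of pro-erythroblast-only peaks, against 57.1% of bases. Introns held between 22.6% and 24.3% of each set and 32.5% of bases. Among chromosomes, between 54.0% (chromosome 19) and 66.4% (chromosome 13) of the erythroblast peaks were shared.

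Of 21418 protein-coding autosomal genes, 1786 (8.34%) had a pro-erythroblast peak within 5 kb of a TSS, 314 (1.47%) an erythroblast peak and 166 (0.775%) both. The 166 genes were 52.9% of those with an erythroblast peak and 9.3% of those with a pro-erythroblast peak. In the gene window, the gene body with 5 kb upstream and 1 kb downstream, the shares were 18.2%, 5.0% and 3.91%. Genes with both in the window were long, with a median of 148 kb against 15.5 kb over all genes. For 999 of the 1786 and 211 of the 314 genes, the highest-scoring peak near the TSS lay on a unit.

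Among genes with a peak at both stages, the highest erythroblast score belonged to Cdkn1a, the cell-cycle inhibitor p21. Its erythroblast peak (chr17:29238777-29246177) held 268 tags with a score of 263, an FDR of 100%. It lay beyond the 3′ end of the gene (chr17:29227924-29237667, forward strand), with its summit 7254 bases from the nearest annotated TSS, which is inside the gene. The pro-erythroblast peak there (chr17:29237978-29246188) held 727 tags with a score of 453. The density ratio of erythroblast over pro-erythroblast was 0.757 (exact 95% interval 0.656 to 0.872). Spnb1, the beta spectrin of the red cell membrane skeleton, had a peak of 80 tags in pro-erythroblasts and 44 in erythroblasts on a copy of A upstream of a TSS inside the gene (chr12:77754030-77755575 in erythroblasts), with a density ratio of 1.11 (interval 0.747 to 1.62). Capn9, a calpain protease, had 255 and 56 tags and a ratio of 0.94 (interval 0.691 to 1.26) on A. Rbm25, a splicing factor, had 325 and 49 tags and a ratio of 1.16 (interval 0.842 to 1.57) on B. Gulp1, an adaptor of engulfment, had 231 and 56 tags and a ratio of 1.68 (interval 1.24 to 2.26) on D. These ratios compare regions called separately in each library, of 4905 and 1307 bases for Gulp1, and with 1 library a stage they say nothing of the spread between samples. The other 5 were 4933409K07Rik, Gm10594, Lrrc8d, Gm17558 and Zfp236, with ratios from 0.903 to 1.19. Of these, 4933409K07Rik and Gm10594 are neighbours that share 1 erythroblast peak, and for 4933409K07Rik the highest-scoring pro-erythroblast peak lay 287 bases beside it. Of the 10 genes only Cdkn1a had its erythroblast peak on no unit, though 87.7% of the words around its summit were repeated.

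The 5 genes with the highest-scoring peak near a TSS in pro-erythroblasts only were Gm8597, 2310061C15Rik, Ttll4, Nol7 and Olfr1155. Each of these peaks was between 6539 and 13536 bases long with 371 to 731 tags and lay on A. The summit was between 4114 and 10540 bases from the nearest TSS of any protein-coding gene. At 4 of the 5 genes, all but Ttll4, the peak did meet an erythroblast peak, which lay outside the 5 kb around the TSS.

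Among genes with a peak near a TSS in erythroblasts only, the highest score was at Mtf2 itself, which encodes the protein the antibody is directed against. The peak (chr5:108515321-108516202) lay inside the gene (chr5:108494693-108538023), 481 bases from the start of a shorter transcript, with 43 tags, a score of 127, a fold enrichment of 23.4 and an FDR of 9.84%. It was on no unit, and the nearest pro-erythroblast peak was 154472 bases away. Tmem56, Gldc, which encodes a subunit of the glycine cleavage system, Hus1, a DNA damage checkpoint factor, and the nuclear receptor gene Nr1i3 followed with 16 to 19 tags and scores from 96.2 to 117, also on no unit.

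Erythroid genes carried peaks near a TSS about as often as all genes in pro-erythroblasts. Of 51 genes of the erythroid programme, 4 had one in pro-erythroblasts and 3 in erythroblasts, 7.84% and 5.88% of the list against 8.34% and 1.47% of all genes, and only Spnb1 had both. Uros, which encodes an enzyme of haem synthesis, had an erythroblast peak of 18 tags on E and no pro-erythroblast peak in its gene window. Kit, the receptor for stem cell factor, had a pro-erythroblast peak inside the gene, upstream of a TSS of a shorter transcript (chr5:76038409-76040583, 86 tags, score 227) and none in erythroblasts. Sox6, a repressor of embryonic globin genes, had 5 pro-erythroblast peaks in its gene window, the highest with 133 tags and a score of 320. Slc25a38, a mitochondrial carrier needed for haem synthesis, had 2 peaks, also in pro-erythroblasts only. The higher-scoring one held 28 tags, with its summit 1958 bases from the nearest TSS of any protein-coding gene.

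Of 74 genes of the Wnt pathway, 1 had a pro-erythroblast peak near a TSS and none an erythroblast peak. The 1 was Wls, which carries Wnt ligands to the cell surface (21 tags, score 55.0). In the gene window 9 (12.2%) had a pro-erythroblast and 4 (5.41%) an erythroblast peak, against 18.2% and 5.0% of all genes. The median gene length of this list was 28.5 kb, against 15.5 kb over all genes, and the part of length in these shares was not tested. Znrf3, a ubiquitin ligase that removes Wnt receptors, had 198 tags in a peak on A and Tcf7l2, a transcription factor that acts with β-catenin, 43 tags, both in introns and in pro-erythroblasts. Lef1, a factor of the same family, had an erythroblast peak only, with 21 tags, and Rspo2, a secreted enhancer of Wnt signaling, had 61 and 25 tags on E. The other 2 genes with erythroblast peaks, Ror2, a Wnt receptor, and the ligand gene Wnt2, had pro-erythroblast peaks too. The highest-scoring erythroblast peak in Ror2 (39 tags) met a pro-erythroblast peak, and the one in Wnt2 (15 tags) did not.

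Of 31 genes of the Polycomb complexes and histone demethylases, 4 had a pro-erythroblast and 2 an erythroblast peak in the gene window, and none had both. These are 12.9% and 6.45% of the list, against 18.2% and 5.0% of all genes, of which 3.91% had both. These genes were also longer, with a median of 28.3 kb against 15.5 kb over all genes. Cbx7, a reader of H3K27me3, and Kdm2b, which binds CpG islands, had 2 pro-erythroblast peaks each. The higher-scoring one of Cbx7 lay on C, 3820 bases from the nearest TSS of any protein-coding gene (59 tags, score 164). That of Kdm2b held 73 tags on H. The erythroblast peaks were those of Mtf2 and of Pcgf3, with 15 tags on H.

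The list of 59 other haematopoietic regulators had a median gene length of 27.9 kb, against 15.5 kb over all genes. Of the 59, 13 (22.0%) had a pro-erythroblast and 1 (1.7%) an erythroblast peak in the gene window, against 18.2% and 5.0% of all genes. The latter was Foxp1, a forkhead factor, with 34 and 24 tags in an overlapping pair of peaks on H. Erg, a stem cell transcription factor, had 145 tags on D, Tcf12 130 tags on E, Mecom 95 tags on no unit and Ebf1, a B-cell factor, 27 tags on H, all in pro-erythroblasts and in introns. Near a TSS, Bach2 (34 tags), Sfpi1, which encodes PU.1 (22 tags, 253 bases from the nearest TSS), and Hlf (25 tags) had a pro-erythroblast peak and none an erythroblast peak.

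Long genes of neuronal adhesion and receptors often held peaks away from the TSS. Of 94 genes, 82 (87.2%) had a pro-erythroblast and 49 (52.1%) both peaks in the gene window, against 18.2% and 3.91% of all genes. The median gene length of the list was 696 kb, and 6 genes had a pro-erythroblast and 1 an erythroblast peak near a TSS. Lphn3, an adhesion receptor, held the highest-scoring peak of the pro-erythroblast list in an intron (chr5:81806697-81814072, 488 tags, score 1996, fold 40.6), which seeded unit A and had no erythroblast peak. Lrp1b held 27 and 3 peaks, Gpc6 15 and 6, and Dlg2 12 and 4.

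Near a TSS, the gene families with a shared name prefix ranged from 3.39% of genes with a pro-erythroblast peak (serpin genes) to 12.1% (histone cluster genes), excluding Hox genes, around the 8.34% of all genes. Olfactory receptor genes had 106 and 17 of 1106 (9.58% and 1.54%), vomeronasal receptor genes 39 and 5 of 327, zinc finger protein genes 29 and 5 of 365, and histone cluster genes 8 and 3 of 66, of which Hist2h2bb and Hist2h3b share 1 pair of peaks. Cadherin and protocadherin genes had 3 and 0 of 63, potassium channel genes 6 and 1 of 94, and serpin genes 2 and 0 of 59. Of 40 Hox genes, 1 had a pro-erythroblast peak near a TSS and none an erythroblast peak.

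The peaks with the highest scores of each set are shown by 150 bases centred on their summit, on the forward strand of mm9 with CpG in capitals, to set the copies of A beside the sequence of the erythroblast peaks. The highest score among pro-erythroblast-only peaks was that of the Lphn3 intron, inside A. The highest among shared erythroblast peaks was that at Cdkn1a and the highest among erythroblast-only peaks lay in intergenic sequence of chromosome 16 (chr16:10886516-10886816, 20 tags, score 219, FDR 57.1%). The next sequence is the erythroblast-only peak inside Mtf2. The last is the pro-erythroblast peak with the highest score among those with a summit within 1 kb of a TSS, at Eps8l1, which encodes a regulator of actin (279 tags, score 549).

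Lphn3 intron, chr5:81809824-81809973: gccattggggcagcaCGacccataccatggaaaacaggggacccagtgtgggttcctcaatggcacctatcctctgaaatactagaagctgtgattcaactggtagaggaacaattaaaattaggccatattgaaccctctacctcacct
Cdkn1a, chr17:29242331-29242480: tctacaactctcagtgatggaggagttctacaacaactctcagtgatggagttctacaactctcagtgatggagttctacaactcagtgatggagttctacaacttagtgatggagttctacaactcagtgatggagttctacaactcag
Chromosome 16, chr16:10886545-10886694: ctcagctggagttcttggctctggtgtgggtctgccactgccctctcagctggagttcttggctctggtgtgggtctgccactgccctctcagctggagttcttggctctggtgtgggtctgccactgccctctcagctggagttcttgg
Mtf2, chr5:108515459-108515608: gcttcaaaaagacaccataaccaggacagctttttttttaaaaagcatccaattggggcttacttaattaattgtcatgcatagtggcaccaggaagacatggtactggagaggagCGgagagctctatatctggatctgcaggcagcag
Eps8l1, chr7:4411879-4412028: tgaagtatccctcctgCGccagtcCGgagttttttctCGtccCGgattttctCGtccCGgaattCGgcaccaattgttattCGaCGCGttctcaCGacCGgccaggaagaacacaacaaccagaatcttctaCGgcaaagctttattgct

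The Eps8l1 window, on a copy of A, held 13 CpG, the Lphn3 and Mtf2 windows 1 each and the other two none. The chromosome 16 window was a tandem repeat in which 100% of bases recurred 44 bases on, and the Cdkn1a window was a less regular one, with 60.5% of bases the same 21 bases on.

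The next scores belonged to peaks on and off the units. In pro-erythroblasts only, chr15:56007209-56014752 (433 tags, score 1589) and chr1:105101345-105109214 (415 tags, score 1455) lay on A. Among shared erythroblast peaks, chr4:130779039-130783615 (124 tags, score 252) lay on no unit, with 92.5% of its words repeated, and chr5:59396362-59399930 (110 tags, score 248) on A. In erythroblasts only, a peak in an intron of Dock2 (chr11:34495137-34496397) held 135 tags with a score of 157 at a density of 6.83, on no unit and with 11.6% of its words repeated. The 1 kb around its summit includes bases that are unknown in mm9. Its CpG were thus not counted, and the share of words covers only those without such bases. The next, chr6:7412658-7413426, held 30 tags with a score of 146, on no unit and with 71.3% of its words repeated.

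The longest shared pro-erythroblast peak (chr8:109003101-109020348) spanned 17248 bases with 847 tags on A, and the longest pro-erythroblast-only peak (chr2:83805610-83820011) 14402 bases with 651 tags on B. The longest erythroblast-only peak (chr4:30573155-30577523) spanned 4369 bases with 179 tags on E. The highest fold enrichment was 70.97 among pro-erythroblast-only peaks, in an intron of Lmbr1 on E (150 tags), 48.3 among shared pro-erythroblast peaks on A and 59.8 among shared erythroblast peaks, in an intron of Fgf14 on no unit (38 tags, 20.4% of words repeated). Among erythroblast-only peaks it was 35.1 (26 tags), 543 bases from a pro-erythroblast peak.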

How the data were processed

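Sorted e14.5 FL cells were crosslinked and sonicated, and ChIP DNA was sequenced by the authors, who per the labels aligned reads to mm9 with Bowtie2 2.2.3 and called peaks with MACS 1.3.7 at a p cutoff of 1e-05. Whether the replicates of 2 were pooled, and how tags with several matches were placed, is not given in the sources used here. The deposited tag counts are tags per peak, not scaled for depth. The deposited score is 10 times the negative log10 of the p, the deposited fold enrichment is a ratio over IgG, and the deposited FDR is a percent by the authors' peak caller. IgG libraries enter only through these values.

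Coordinates are 1-based on NCBIM37 (mm9), with genes from GENCODE M1. Peaks were shared when they had at least 1 base in common. Summits were placed, in this order, in proximal promoter (1 kb around a TSS), distal promoter (5 kb upstream), exon, intron or intergenic sequence. Units were aligned to the 19 autosomes with BLAST 2.17.0+ (at least 200 bases, 80% identity, E value of at most 1e-30), trimmed to bases with at least 10 alignments, and alignments within 500 bases were joined. A window was put on the unit with most of its bases, at least 200. Overlap and placement were tested on simulated intervals, where 3 of 3 overlap settings and 5 of 5 points gave the planted answer.

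Genes and peaks were named by score: the 3 highest in the shared erythroblast and both stage-only sets, the longest and the highest fold enrichment of each set, 10 genes with both peaks, 5 with 1 stage only, and up to 4 genes of each list. The members, lists and rules were chosen with earlier results of these data known, and the units and word counts after the data were seen. Words were counted with numba 0.67.0, figures drawn with matplotlib 3.10.9, and intervals computed with scipy 1.17.1, pandas 2.3.3 and numpy 2.4.6 under Python 3.11.15. Further list members with an erythroblast peak were named after their values were seen, and 1 is not reported here.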

Additional observations from a re-analysis of the deposited data

How the results depend on the processing

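No paired analysis was possible because each condition had 1 library. Shared pro-erythroblast peaks stayed longer than pro-erythroblast-only peaks under each alternative run for length, whereas the density ratio fell from above to below 1 when tags were not divided by length. Shared erythroblast peaks (60.03%) were 84.9% with a score of at least 100 in both lists, 58.5% with at least 50% of the shorter peak shared, 62.4% with a peak within 1 kb, 39.1% with equal numbers of top-scoring peaks, 24.1% without peaks on a unit, 41.3% without those on A and 14.8% where under 50% of words were repeated. Shared pro-erythroblast peaks (10.3%) were 3.09%, 9.48%, 12.3%, 32.6%, 2.83%, 5.97% and 2.44% in the same order. The last 3 alternatives, and all those without units, were chosen after seeing the data. The erythroblast list has no peak with an FDR of at most 5%, so that alternative gave no value. The ratio of median lengths of shared over pro-erythroblast-only peaks (2.23) was 1.91 with a score of at least 100, 1.51 with equal numbers and 1.44 without units. The density ratio (1.06) was 1.22 by all tags, 1.09 for pairs of 1 peak with 1 peak, 0.376 without division by length and 1.18 without units. Pro-erythroblast-only peaks that held the erythroblast median after scaling (57.4%) were 50.7% by all tags, 41.9% at the upper quartile, 18.2% per kb and 53.8% without units. Genes near a TSS (1786, 314 and 166 in pro-erythroblasts, erythroblasts and both) were 586, 16 and 13 with a score of at least 100, 426, 48 and 16 at 1 kb, 3340, 692 and 446 at 10 kb, 3906, 1070 and 837 in the gene window, and 822, 105 and 19 without units. Intergenic shares of pro-erythroblast-only, shared and erythroblast-only peaks were 74.6%, 75.0% and 72.0% with a score of at least 100 and 62.9%, 67.3% and 58.6% without units. The shared shares on all chromosomes and the intergenic shares at the peak centre and with a 2 kb promoter window stayed within the counting interval. The cause of these shifts was not tested. Library depth and the 1 library per stage limit every count above.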
